A study of Mus musculus with 7 samples.

Results

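The genes described are those of MHC class II presentation, measured in group 2 innate lymphoid cells (ILC2s) with and without a working Gfi1 gene. They are 10 genes chosen by name: H2-Aa, H2-Ab1 and H2-Eb1, H2-DMa and H2-DMb1, H2-Oa, Cd74, Ctss, Ciita and Cd86. Every probe whose accession maps to one of them was taken, which gave 11 of 39429 probes and 10 of 32585 genes on the array. H2-Ab1 has 2 probes, both against the same transcript accession, and the others have 1 each. All 10 genes passed the filter for testing, which kept 25400 genes. Of these, 16727 have a gene symbol, and each other accession counts as a gene of its own.

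The knockout group held 3 samples of ILC2s from Gfi1GFP/GFP mice, in which an inserted GFP cassette disrupts Gfi1, a transcriptional repressor, while the gene's promoter goes on to drive GFP. The wild-type group held 4 samples from Gfi1+/+ mice. Each knockout sample pooled 6 mice and each wild-type sample 3 mice, and the allele is not limited to ILC2s. All mice of both groups had been injected with IL-25 on 4 days, ILC2s were sorted from mesenteric lymph nodes on day 5 by surface markers that include Sca-1, ICOS and c-Kit, and the sorted cells were then kept for 6 days in IL-2 (50 ng/ml), IL-7 (10 ng/ml) and IL-25 (50 ng/ml). The labels give no strain, sex or age. Each array read ILC2 RNA in red (Cy5) and a commercial reference RNA from mouse in green (Cy3), the same on all 7 arrays, and no dyes were swapped. A ratio below is log2 of red over green, a difference is knockout minus wild type, and a gene is called where its adjusted p is under 0.05.

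MHC class II molecules carry peptides from endocytosed proteins to the cell surface, where CD4+ T cells read them. The alpha and beta chains (H2-Aa with H2-Ab1 for I-A, H2-Eb1 for the beta chain of I-E) assemble on the invariant chain Cd74, which blocks the groove until the protease cathepsin S (Ctss) trims it. The H2-DM heterodimer then exchanges the remaining fragment for peptide, and the H2-O heterodimer restrains H2-DM. Ciita is the co-activator that switches on most of these genes through X and Y boxes in their promoters, and Cd86 is a costimulatory ligand shown beside the peptide. Mouse ILC2s are known to carry class II molecules and to exchange signals with CD4+ T cells.

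Promoters are shown because the class II genes with a matched window differ in their promoter layout, whether called or not. RefSeq windows (build GRCm38.p6, 250 bases before to 50 after the start) were matched for 6 of the 10 genes, in 7 windows. H2-Ab1, Cd74, Ciita and Cd86 were not matched. The X box core was searched as GNNACNGAT and the Y box as GATTGG, each on both strands, and the interferon response element as GAAANNGAA, also on both strands. No match of one motif overlapped a match of another. The following windows are printed with matches in capitals.
H2-DMb1: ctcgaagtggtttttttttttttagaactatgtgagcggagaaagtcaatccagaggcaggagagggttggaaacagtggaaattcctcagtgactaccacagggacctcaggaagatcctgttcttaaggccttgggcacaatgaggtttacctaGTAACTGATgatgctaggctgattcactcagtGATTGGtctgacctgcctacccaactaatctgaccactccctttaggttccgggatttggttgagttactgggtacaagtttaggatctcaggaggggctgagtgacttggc
H2-Eb1: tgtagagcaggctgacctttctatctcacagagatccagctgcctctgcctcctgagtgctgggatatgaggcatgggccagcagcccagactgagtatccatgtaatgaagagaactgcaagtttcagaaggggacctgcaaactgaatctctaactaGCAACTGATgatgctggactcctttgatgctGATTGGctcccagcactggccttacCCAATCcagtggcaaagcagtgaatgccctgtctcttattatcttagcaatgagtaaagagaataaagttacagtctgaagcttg
H2-Oa: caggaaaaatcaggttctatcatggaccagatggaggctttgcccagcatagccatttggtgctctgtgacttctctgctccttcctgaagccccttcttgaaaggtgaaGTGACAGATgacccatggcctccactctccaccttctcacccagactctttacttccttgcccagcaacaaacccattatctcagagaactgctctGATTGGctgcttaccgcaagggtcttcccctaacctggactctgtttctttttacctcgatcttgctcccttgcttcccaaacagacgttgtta
Ctss: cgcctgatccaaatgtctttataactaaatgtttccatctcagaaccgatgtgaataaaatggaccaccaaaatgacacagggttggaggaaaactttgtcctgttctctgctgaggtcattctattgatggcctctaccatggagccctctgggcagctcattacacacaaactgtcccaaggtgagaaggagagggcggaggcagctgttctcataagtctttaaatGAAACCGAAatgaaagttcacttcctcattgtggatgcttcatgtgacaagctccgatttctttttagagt
They lie at chr17:34152941-34153240 for H2-DMb1, at chr17:34305617-34305916 for H2-Eb1, at chr17:34092129-34092428 for H2-Oa and at chr3:95526536-95526835 for Ctss, all on the plus strand. H2-DMb1 holds an X box core followed after 23 bases by a Y box, and H2-Eb1 holds the pair with 22 bases between and a further Y box on the minus strand. In H2-Oa the same pair lies 87 bases apart. In Ctss neither box was found, and an interferon response element starts 21 bases before the start. Over 32851 windows of this length, 7.82% hold the X box core, 16.1% the Y box and 8.56% the interferon element. An X box core followed on the same strand by a Y box after 10 to 30 bases, with motif letters and spacing both settled after the windows were seen, occurs in 17 windows (0.0517%), among them those of H2-DMb1, H2-Eb1 and H2-Eb2. A Gfi1 site, searched as AATCNNTGC, is in 2.44% of windows and in none of these 7, which says only that these letters are not in them. H2-Aa holds a Y box alone, and of the 2 windows of H2-DMa, 1 holds a Y box and the other none of the motifs. The 10 genes do not share a chromosome: 6 lie on chromosome 17, Ciita and Cd86 on 16, Cd74 on 18 and Ctss on 3.

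Of all tested genes, 7.49% were called between the groups, 3.26% higher and 4.23% lower in the knockout. The split depends on the centring: 43.5% of calls were higher with loess and 55.4% with median centring. Gfi1 itself read 4.28 ± 0.02 in the knockout and 2.02 ± 0.23 in wild type (SD, n = 3 and n = 4; limma adjusted p = 1.6e-05), but the position of its probe relative to the cassette is not known here, so it checks no label. Between 67.5% and 81.0% of probes lay above background in the sample channel. Arrays share slides: knockout array 1 and wild-type array 4 lie on slide 1, knockout arrays 2 and 3 and wild-type array 1 on slide 2, and wild-type arrays 2 and 3 on slide 3, which holds wild type only. With slide as a block 1.88% of genes were called, so values within slides are given beside the results. Knockout array 3 and wild-type array 4 were held in doubt for background or scanner quality by an earlier analysis, and without both of them 4 of the 10 class II genes were called, H2-DMa no longer being one. Of 15 ILC2 markers, 14 lay above background on all arrays.

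Of the 10 class II genes, 5 were called by limma, 2 higher and 3 lower in the knockout, against 7.49% of all tested genes. Over probes it was 6 of 11, against 7.45% of tested probes. Ctss and Cd74 rose, and H2-Ab1, H2-DMa and H2-DMb1 fell. The groups did not overlap for 6 of 10, against 18.2% of all tested genes, the sixth being H2-Oa. The median of the 10 differences was 0.17, against -0.01 over all tested genes, so the list did not move one way. In these bulk samples fewer cells of a type and less RNA per cell cannot be told apart.

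**Figure D1:**
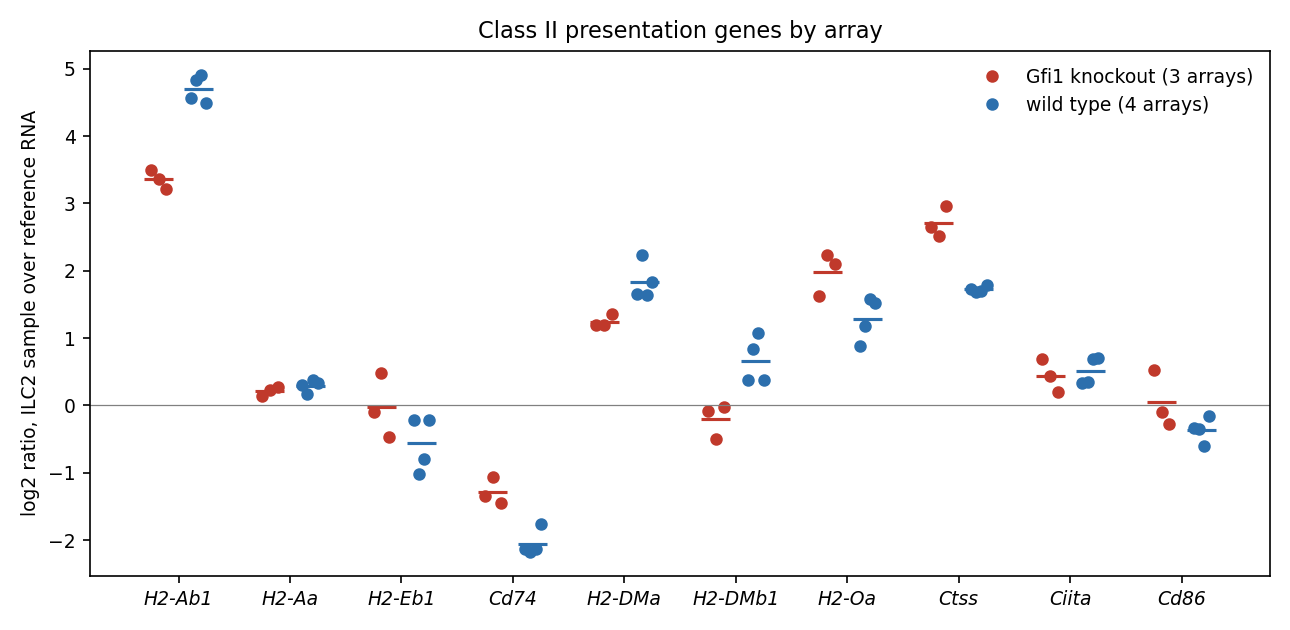
Log2 ratio of sample over reference for each of the 10 genes (horizontal), with 1 point per array and the group mean as a bar, knockout left of wild type. The 3 knockout points lie below all 4 wild-type points for H2-Ab1, H2-DMa and H2-DMb1, and above them for Ctss, Cd74 and H2-Oa.

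H2-Ab1, the beta chain of I-A, fell most. Its ratio was 3.50, 3.37 and 3.21 on knockout arrays and 4.57, 4.84, 4.91 and 4.49 on wild-type arrays. All knockout arrays lay below all wild-type arrays, by more than the spread within either group. The difference was -1.34 ± 0.12 (SE), a 2.53-fold lower ratio (limma adjusted p = 0.000315). The second probe gave a 2.85-fold lower ratio (-1.51, limma adjusted p over probes = 0.000216). Within slides the difference was -0.98 and -1.28, and with slide as a block -1.15 (limma adjusted p = 0.0069).

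For H2-Ab1 the ratio fell by less than the sample channel alone, since the reference channel differed between the groups too. After loess and Aquantile normalization, the sample channel was 11.82, 11.61 and 11.39 on knockout arrays and 13.73, 14.71, 14.67 and 14.05 on wild-type arrays (log2 intensity). The gap is wider than in the ratio, a 6.43-fold fall (difference -2.68, limma adjusted p = 0.000928). The green channel, which held the same RNA on every array, was 8.32, 8.24 and 8.18 on knockout arrays and 9.16, 9.88, 9.75 and 9.56 on wild-type arrays. The groups do not overlap there either, and the difference was -1.34 (2.54-fold, limma adjusted p = 0.0383). In the unnormalized files the green spot of this probe read 197.5, 155 and 159 on knockout arrays and 324.5, 452, 448 and 507.5 on wild-type arrays. The second probe showed the same order, with a green difference of -1.11 (limma adjusted p over probes = 0.0291).

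Few genes differed in the reference channel: 10 of 25400 were called, which is 0.0394%, while 5.78% had an unadjusted p under 0.05. H2-Ab1 was the 1 class II gene among them, and it ranked 4 by the size of its reference difference over all tested genes. All 10 called genes moved the same way in both channels; Il17f (1.13) and Arg1 (-0.95) were among them. Among genes whose sample channel fell by at least 1 on the log2 scale and was at least 10 times the reference, 23 of 24 were lower in the reference too (95.8%, median -0.16). Among such genes with a sample under 10 times the reference it was 120 of 194 (61.9%, median -0.04). Among genes whose sample channel rose by at least 1, the reference was higher too in 8 of 10 at 10 times or more (80%, median 0.26). Under 10 times it was 183 of 227 (80.6%, median 0.08). Between these classes of mean sample over reference, the shares differ for falls and are close for rises. No test was made of these shares, and the share over all tested genes was not counted. H2-Ab1 is itself among the 24, and both channels are read from the same spots. The cause of the reference difference was not tested. The reference call was lost on leaving out any array but wild-type array 1, with adjusted p from 0.00302 to 0.258 over the 7 fits, while the difference stayed between -1.49 and -1.25. It was also lost with slide as a block (-1.08, limma adjusted p = 0.0789) and with the scanner's own processed signal (-1.71, limma adjusted p = 0.324). Within slides it was -1.24 and -0.95. The sample-channel fall held in all 7 of those fits.

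**Figure D2:**
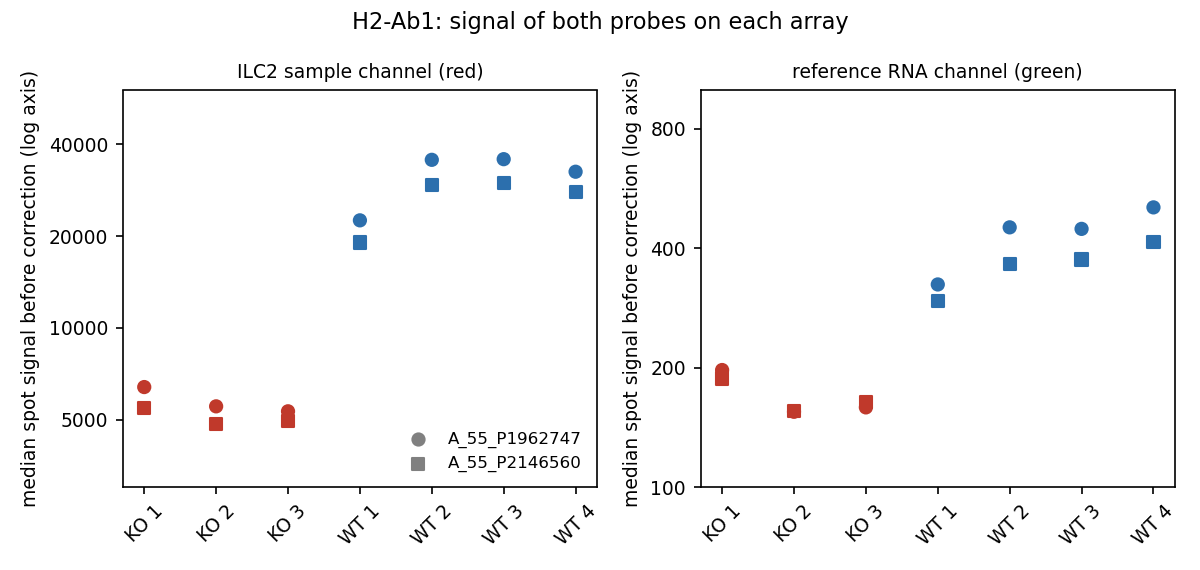
Median spot signal of the 2 H2-Ab1 probes before any correction, per array (log axes), for the sample channel and the reference channel, knockout arrays (KO) left of wild-type arrays (WT). In both channels and for both probes every knockout array lies below every wild-type array.

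H2-Aa, the alpha chain that pairs with H2-Ab1, did not follow it. Its ratio was 0.13, 0.23 and 0.28 on knockout arrays and 0.30, 0.17, 0.38 and 0.33 on wild-type arrays. The groups overlap, and the difference was -0.08 with a 95% interval from -0.27 to 0.11 (limma adjusted p = 0.693). Its probe was dim: it lay above background in the sample channel on 3 of 3 knockout and 3 of 4 wild-type arrays, and in the reference channel on 3 of 7. The difference was -0.26 with a normexp offset of 1 and had the opposite sign, 0.03, with median centring, and neither was called. The I-E beta chain H2-Eb1 read -0.09, 0.48 and -0.47 on knockout arrays and -0.21, -1.01, -0.80 and -0.22 on wild-type arrays. Its knockout arrays are spread widely and overlap with wild type (0.53, interval -0.04 to 1.1, limma adjusted p = 0.294), and with slide as a block the difference was 0.18.

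The invariant chain Cd74 rose. Its ratio was -1.35, -1.06 and -1.46 on knockout arrays and -2.14, -2.17, -2.13 and -1.76 on wild-type arrays, so the groups do not overlap and the knockout is higher. The ratio differed by 0.76 ± 0.13 (SE), 1.70-fold (limma adjusted p = 0.00757), and 0.72 in the sample channel (limma adjusted p = 0.0159). Its reference channel differed by -0.04. The call was lost with slide as a block (0.68, limma adjusted p = 0.116), with differences of 0.42 and 0.88 within slides, and without slide 3 (0.66).

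Ctss, which trims the invariant chain, rose by 1.98-fold. Its ratio was 2.65, 2.51 and 2.96 on knockout arrays and 1.73, 1.68, 1.70 and 1.78 on wild-type arrays. The wild-type arrays agree closely and every knockout array lies above them. The difference was 0.98 ± 0.11 (SE; limma adjusted p = 0.000816), 0.87 and 1.01 within slides and 0.95 with slide as a block (limma adjusted p = 0.0317). In the sample channel alone it was 0.60, 1.51-fold (limma adjusted p = 0.00924), and with slide as a block that call was lost (limma adjusted p = 0.0636). The reference channel was 13.30, 13.08 and 12.76 on knockout arrays and 13.41, 13.45, 13.46 and 13.41 on wild-type arrays. The knockout arrays were lower there without overlap, by 0.39, though this did not pass the adjustment (limma adjusted p = 0.825). So the sample-channel rise is smaller than the rise in ratio, the other way round from H2-Ab1.

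Both chains of H2-DM fell. H2-DMb1, the beta chain, read -0.08, -0.50 and -0.03 on knockout arrays and 0.37, 0.83, 1.08 and 0.38 on wild-type arrays. The groups do not overlap, and the ratio was 1.83-fold lower (-0.87 ± 0.19 SE, limma adjusted p = 0.0241). H2-DMa, the alpha chain, read 1.19, 1.19 and 1.35 on knockout arrays and 1.65, 2.23, 1.64 and 1.84 on wild-type arrays, also without overlap. Its ratio was 1.51-fold lower (-0.59 ± 0.14 SE, limma adjusted p = 0.0362). Within slides the difference was -0.46 and -0.64 for H2-DMb1, and -0.65 and -0.38 for H2-DMa. Neither call held with slide as a block: the H2-DMb1 difference was then -0.56 (limma adjusted p = 0.212) and that of H2-DMa -0.49 (limma adjusted p = 0.367). Leaving out knockout array 2 (adjusted p = 0.0889) or wild-type array 2 (adjusted p = 0.0737) ended the call for H2-DMb1. For H2-DMa it ended without knockout array 1, 2 or 3 or without wild-type array 4 (adjusted p up to 0.111). In the sample channel the H2-DMb1 difference was -0.92 (limma adjusted p = 0.0512) and that of H2-DMa -0.58 (limma adjusted p = 0.0629). H2-DMb1 has a near-identical neighbour, H2-DMb2, whose probe lay above background on no array, and cross-reading between them cannot be told apart.

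H2-Oa, the alpha chain of H2-O, read 1.62, 2.24 and 2.10 on knockout arrays and 0.89, 1.18, 1.57 and 1.52 on wild-type arrays. All knockout arrays lay above all wild-type arrays, though the nearest were close, and the difference of 0.70 (interval 0.26 to 1.13) did not pass the adjustment (limma adjusted p = 0.0634). It was 0.10 within slide 1 and 1.28 within slide 2, and it passed without knockout array 1 (limma adjusted p = 0.0261). Its partner H2-Ob differed by -0.33 (limma adjusted p = 0.0935) on the probe with the brightest signal, while a second probe fell by 0.61 (limma adjusted p over probes = 0.0172), so the probes disagree on the call. Ciita read 0.69, 0.44 and 0.20 on knockout arrays and 0.33, 0.34, 0.68 and 0.71 on wild-type arrays. The groups overlap, and the interval of the difference ran from -0.39 to 0.25 (-0.07, limma adjusted p = 0.855). With the scanner's own log ratio the difference was -0.42, outside that interval and not called. The Ciita probe was dim, like that of H2-Aa. It lay above background on 3 of 3 knockout and 4 of 4 wild-type arrays, and in the reference channel on 6 of 7. Its unnormalized sample spots read 124 to 181 on knockout arrays and 111 to 203 on wild-type arrays, which limits what the interval can show. Cd86 read 0.53, -0.09 and -0.28 on knockout arrays and -0.34, -0.36, -0.60 and -0.16 on wild-type arrays, and overlapped through its lowest knockout array (0.42, interval 0.00 to 0.83, limma adjusted p = 0.252).

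**Figure D3:**
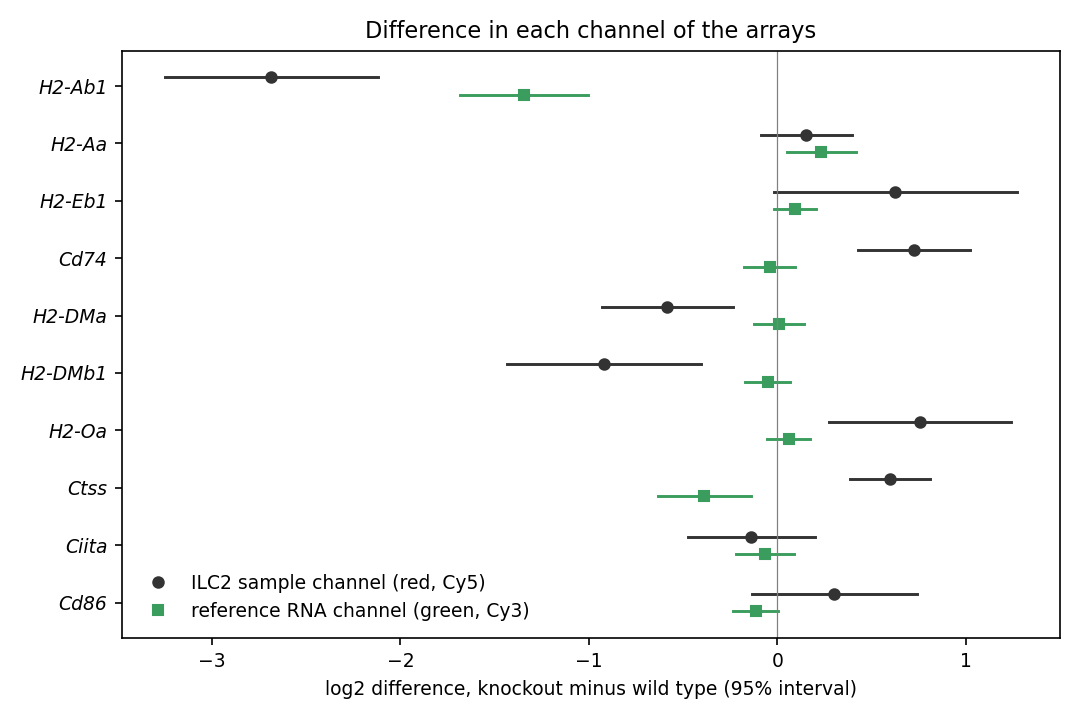
Difference between knockout and wild type in the sample channel and in the reference channel for each of the 10 genes (log2, horizontal), with 95% intervals. H2-Ab1 lies near -2.68 in the sample channel and -1.34 in the reference channel, while the reference points of the other genes lie between -0.39 (Ctss) and 0.23 (H2-Aa).

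In the sample channel alone 3 of the 10 genes were called, against 6.52% of all tested genes. Ctss and Cd74 were higher, as were 2.9% of all tested genes, and H2-Ab1 was lower, as were 3.62%. H2-Oa (0.76, limma adjusted p = 0.0802) and H2-Eb1 (0.63, limma adjusted p = 0.273) did not pass.

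**Figure D4:**
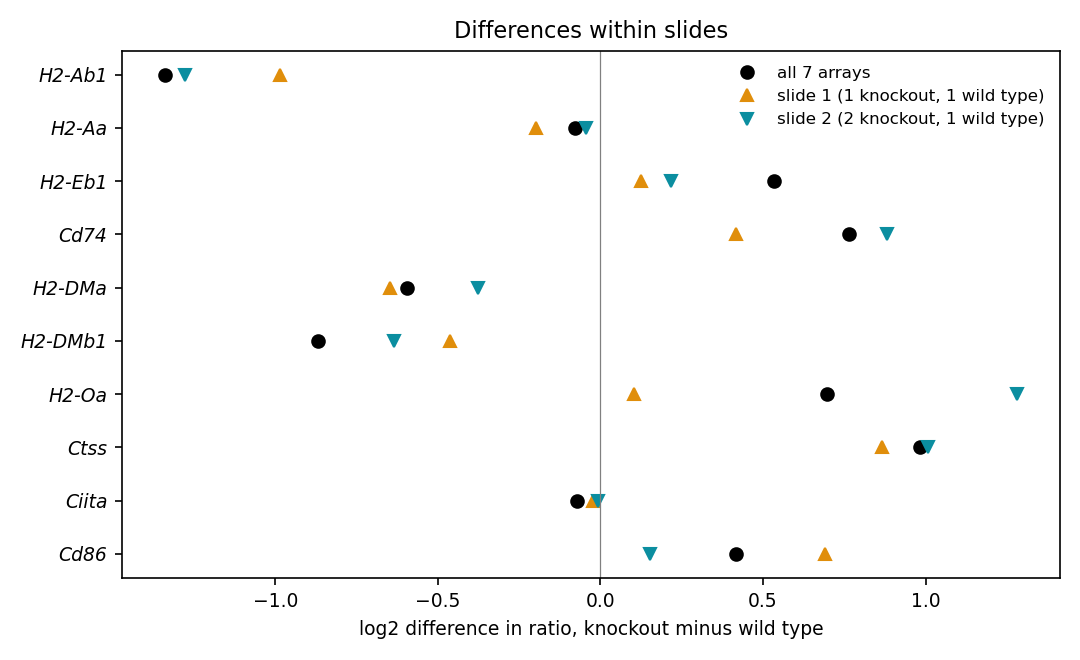
Difference in log2 ratio, knockout minus wild type, for each gene within slide 1 (1 array a group) and within slide 2 (2 knockout arrays and 1 wild-type array), beside the difference over all 7 arrays. H2-Ab1, H2-DMa and H2-DMb1 lie below 0 and Ctss and Cd74 above 0 in both slides, and H2-Oa differs most between slides (0.10 and 1.28).

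The class II transcription list holds RFX, NF-Y and CREB genes and upstream factors. Limma called 2 of its 13 tested genes, 1 up and 1 down, against 7.49% of all tested genes. The median difference of the 13 was 0.09, against -0.01 over all tested genes. Both called genes, Irf4 and Irf8, are among the upstream factors, and no RFX, NF-Y or CREB gene was called. Irf4 alone kept its call with slide as a block. Irf4, a lymphocyte transcription factor, rose by 2.69 (limma adjusted p = 0.000153), and Irf8, its relative, fell by 1.34 (limma adjusted p = 0.0144, but 0.116 with slide as a block). The RFX subunits that bind the X box differed by 0.10 (Rfx5), -0.05 (Rfxap) and 0.09 (Rfxank), none called. The NF-Y subunit Nfya differed by 0.32 (limma adjusted p = 0.088). Of 11 genes of interferon-gamma signalling, the route that induces Ciita in many cells, Jak2 fell by 0.59 (limma adjusted p = 0.0395, and 0.251 with slide as a block) and no other was called. Of the class II chains that are not among the 10, H2-Eb2 differed by 0.03 and was not called. H2-DMb2 was too dim to test, and no probe was matched to H2-Ea.

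Lysosomal genes that feed the pathway moved both ways, 2 up and 3 down of 9 tested (median -0.27), against 7.49% called over all tested genes. Ifi30, a lysosomal thiol reductase, rose by 1.05 (limma adjusted p = 0.00735), and the protease Ctsl rose by 0.92 (limma adjusted p = 0.0252). The proteases Ctsd (-0.69), Ctsb (-0.57) and Ctsc (-0.49) fell (limma adjusted p = 0.0353, 0.0227 and 0.0315). With slide as a block limma's adjusted p for these 5 was 0.08 (Ifi30) to 0.306 (Ctsd). Cd83, which stabilizes class II at the surface, had a difference of 1.14 (limma adjusted p = 0.0198), but it lay above background on 3 of 3 knockout and 1 of 4 wild-type arrays, so it was tested through the group in which it is high. Slide 1 gave a difference of 0.21 and slide 2 one of 1.47, and the call was lost with slide as a block (limma adjusted p = 0.259). The ubiquitin ligases that remove class II from the surface, Marchf1 (-0.20) and Marchf8 (-0.56), were not called.

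The costimulatory ligands beside Cd86 moved for 5 of 8 genes tested, 3 up and 2 down, with a median of -0.02, and with slide as a block for 1 of 8, against 7.49% and 1.88% of all tested genes. Tnfsf4 (OX40 ligand) rose by 1.04, Cd70 by 0.95 and Cd80, the relative of Cd86, by 0.73 (limma adjusted p = 0.00351, 0.00507 and 0.00464). With slide as a block these calls were lost, at limma adjusted p of 0.0528 for Tnfsf4, 0.0871 for Cd70 and 0.0718 for Cd80. A second Cd80 probe differed by 0.13 and was not called. Pdcd1lg2 (PD-L2), an inhibitory ligand, fell by 0.49 (limma adjusted p = 0.0127, and 0.0355 with slide as a block), and Tnfsf9 fell by 0.44 (limma adjusted p = 0.0454, and 0.431 with slide as a block). In the class I pathway 1 of 14 genes was called: the chaperone Pdia3 fell by 0.57 (limma adjusted p = 0.0313, and 0.193 with slide as a block), while H2-K1 (-0.29), B2m (0.04) and the class I activator Nlrc5 (0.01) were not called.

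**Figure D5:**
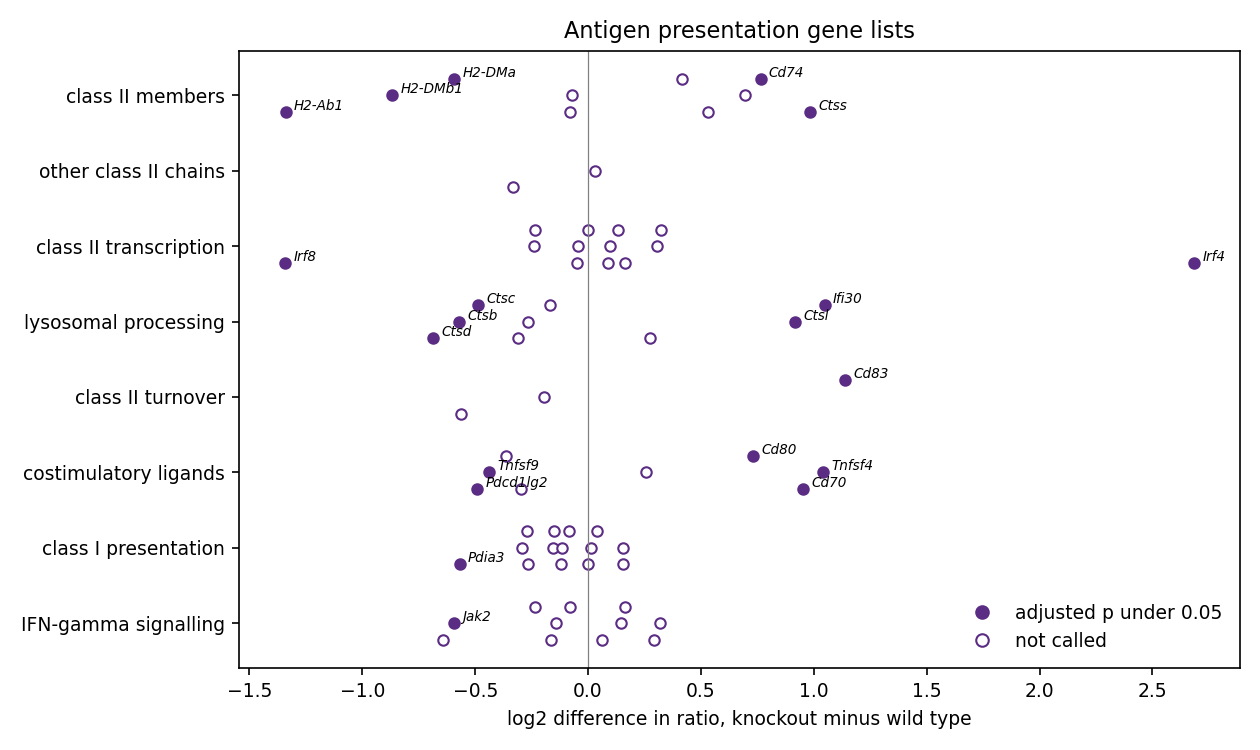
Difference in log2 ratio, knockout minus wild type, for each tested gene of the pathway lists, 1 point a gene, filled where the adjusted p was under 0.05. The class II genes run from -1.34 (H2-Ab1) to 0.98 (Ctss), and Irf4 (2.69) stands highest.

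Markers of other cells that carry class II were read beside these results. Of 12 B cell markers, 8 lay above background on all arrays, among them Cd79a, and of 11 tested limma called none, with none at an unadjusted p under 0.05. The summed sample-channel level of all 12 was 14870 to 17930 in the knockout and 17070 to 20570 in wild type. Of 8 tested dendritic cell markers limma called none, and 1 had an unadjusted p under 0.05. The summed level of all 12 with a probe, dim ones included, was 38140 to 43440 in the knockout and 38160 to 49830 in wild type. Macrophage markers summed to 4200 to 4324 in the knockout and 3609 to 4291 in wild type, with Mertk above background on no array. Ms4a7 was the 1 called of 9 (0.79), but it lay above background on 3 of 3 knockout and 2 of 4 wild-type arrays, and the call was lost with slide as a block (limma adjusted p = 0.135). ILC3 markers moved with the group: 5 of 9 tested rose, among them Tnfsf11, Lta, Ccr6 and Il1r1, and Ahr fell. The sum over all 10 with a probe was 25020 to 31320 in the knockout and 5062 to 10450 in wild type. Of the called ILC3 markers, Ccr6 lay above background on 2 of 4 wild-type arrays. Once slide was a block, the 6 called ILC3 markers had limma adjusted p from 0.0686 (Ahr) to 0.362 (Lta). ILC2 markers, those of the sorted cells themselves, summed to 527400 to 670200 in the knockout and 788300 to 1074000 in wild type, lower in the knockout without overlap. Such sums are of linear intensities, so bright genes weigh most, here Icos and Il13. Neither was called in the ratio (-0.11 and -0.30, limma adjusted p = 0.701 and 0.14). Icos was lower in the sample channel (-0.68, limma adjusted p = 0.0142), and its reference channel differed by -0.57. Of the 15 ILC2 markers tested 2 rose (Il17rb and Ptgdr2, the second above background on 2 of 4 wild-type arrays) and 5 fell, Gata3 and Il1rl1 among them. With slide as a block 5 of the 15 were called, against 1.88% of all tested genes. Il1rl1 kept its call there (limma adjusted p = 0.0077) and Gata3 lost it (limma adjusted p = 0.14). Of 11 tested T cell markers limma called none, with 4 at an unadjusted p under 0.05, and among mast cell markers Cpa3 fell (limma adjusted p = 0.25 with slide as a block). The part of these markers in the class II results was not tested.

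By the pattern over the 7 arrays after centring each gene on its own mean, the genes closest to H2-Ab1 among 16666 searched were Slc2a1, Btk and Ier3, with a root mean squared difference of 0.077 for Slc2a1, against a median of 0.685 over the genes searched. Closest to Ctss was Glrx (0.0783), closest to Cd74 was Klrb1f (0.0918) and closest to H2-DMa was Anxa2 (0.0779). Gstt3 was closest to H2-DMb1 (0.127) and Ctsw to H2-Oa (0.102). The measure rests on 7 arrays and says only that the values lie close.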

How the data were processed

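The samples were 7 two-colour arrays, 3 Gfi1 knockout and 4 wild type. Per the file headers, Agilent Feature Extraction 11.0.1.1 wrote the scanner files, while the submitters' processing notes name 10.7.3.1. The authors deposited linear spot intensity for both dyes. Each spot also has a log10 ratio (red over green) that the scanner software corrected for background and dye, per the file headers. Log2 ratios in the deposited value table equal these ratios within rounding, so its scale, direction and centring are known; its column medians ran from 0.163 to 0.254.

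Median signals and median local background were corrected with normexp (offset 50) and normalized by loess within arrays in limma 3.58.1 (R 4.3.3), with control spots at weight 0. Spots flagged as feature outliers or with non-uniform local background (2597) were left out before the model, and 109 tested genes then lacked a value. The brightest probe in the sample channel stood for a gene, and genes were tested with the sample channel above background on at least 3 arrays and 2 values a group. Channels were fitted alone after Aquantile. Groups were compared with lmFit and eBayes, Benjamini-Hochberg adjusted over all 25400 tested genes. The fitting was tested on simulated data. Figures used matplotlib 3.10.9. Probes were named by accession in a RefSeq gene table (26581 of 39429 named), whose build, GRCm38.p6, is not the array's, so no probe position is given. p-values measure the spread between these pools of mice, and the number of arrays limits precision.

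The 10 genes, the pathway and marker lists and the tests were chosen with earlier results of these data known. Named genes are the 10, Gfi1 and, of each pathway list, every called gene and up to 3 genes by lowest p. For marker lists they are the called genes and the brightest. Some so chosen are left out. Others were named outside this rule, among them Rfx5, Rfxap, Rfxank, B2m, Nlrc5, Cd79a and Mertk. Alternatives covered background, normalization, the value table, channels, flags, filters, slide and replicate blocks and each array left out; those without the arrays in doubt and without slide 3 were chosen after seeing the data.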

Additional observations from a re-analysis of the deposited data

Results flagged for a closer look

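Of 33 sets of 4 wild-type values examined over the class II probes (ratio and both channels), 1 held an array far from the others: the Cd74 ratio of wild-type array 4, at -1.76, against -2.13 for the nearest of the others. The gap was 0.901 of the group's range, which is above the cut-off used for flagging. By chance about 1 in 20 such sets passes that cut-off, so 1 flag among 33 sets is not unusual. That array lies nearest to the knockout values, and it is 1 of the 2 arrays held in doubt. Without it the Cd74 difference kept its sign and its call.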

How the results depend on the processing

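H2-Ab1 and Ctss kept direction and call in all 23 alternatives (H2-Ab1 from -1.43 to -0.93). Cd74 lost its call with slide as a block and without slide 3. H2-DMb1 lost it in 4 alternatives and H2-DMa in 12, and H2-Oa gained one in 3. Of all tested genes, limma called 478 with slide as a block, 590 without slide 3, 1127 without both arrays in doubt and 1262 to 1899 with 1 array left out (1262 without knockout array 2, 1267 without wild-type array 4), against 1902. Class II genes called were 2 with slide as a block, 2 without slide 3 and 3 to 5 with 1 array left out. In the sample channel they were 1 with slide as a block and 2 to 5 with 1 array left out. In the reference channel limma called 0 with the scanner's processed signal (4 at an unadjusted p under 0.05), 0 with slide as a block (2 at an unadjusted p under 0.05) and 0 to 1 with 1 array left out. Over probes the count was 3 with slide as a block and 4 to 6 with 1 array left out. Signs turned for H2-Aa with median centring (0.026), and for Ciita without knockout array 3 (0.050; -0.19 to 0.050 with 1 array left out) and without both arrays in doubt (0.11), while Ciita moved to -0.42 with the scanner log ratio and the value table, and H2-Aa to -0.26 with offset 1; the cause was not tested. With replicate number as a block 1076 genes and 5 class II genes were called. Same-numbered arrays correlated at 0.036, 0.24 and 0.021 after each group was centred on its own mean. Knockout array 2 lay closest to the wild-type array of its own number, and knockout arrays 1 and 3 did not. These values cannot settle whether the numbers mark pairs. Slide 3 holds wild type alone, which limits any correction for slide. A normexp offset draws the ratios of dim probes towards 0 by design, but its part in the moves of H2-Aa and Ciita was not tested. With offset 1 Ciita differed by -0.17, and with the scanner log ratio H2-Aa differed by -0.12.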
